A study of Mus musculus with 6 samples.

Results

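The Ly6 genes studied here are 6 members of the lymphocyte antigen 6 family, Ly6a, Ly6c1, Ly6c2, Ly6e, Ly6g and Ly6i, which lie within 204.1 kb of mouse chromosome 15 (GRCm38, 74955025 to 75159128). They were chosen by name and found by Entrez gene ID, and are 6 of the 36528 genes listed. Transcripts were counted by RNA sequencing in HOXB-8 cells of mouse bone marrow, myeloid progenitors kept dividing by a homeobox transcription factor, which the extraction notes also call iMACs. The group labelled IRF2_KO (3 libraries) carries a guide RNA against Irf2, and the group labelled Parental (3 libraries) is Irf2 wild type and carries a control guide RNA named Luc. The lines differ in guide RNA as well as in Irf2, the notes name a single Irf2 guide, and neither treatment nor time is labelled. Whether libraries of a group stem from separate cultures is not labelled, and the p-values therefore cover only library-to-library spread, which may be technical.

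Ly6 proteins are small cell surface antigens that hold a cysteine-rich Ly6/uPAR domain and are tied to the membrane by a glycosylphosphatidylinositol (GPI) anchor. In mouse blood cell research several are used to sort cells: Ly6a is stem cell antigen 1 (Sca-1) of haematopoietic stem cells, Ly6C marks inflammatory monocytes and Ly6G marks neutrophils. Ly6a and Ly6e are known to be induced by interferon, and IRF2 is a transcription factor that binds interferon response elements and often represses genes that carry them. Setting IRF2_KO against Parental asks how these antigen genes differ when Irf2 is targeted.

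Of the 6 Ly6 genes, Ly6a, Ly6i, Ly6e and Ly6c2 rose in IRF2_KO, Ly6c1 fell and Ly6g did not pass the test (edgeR quasi-likelihood test, Benjamini-Hochberg adjustment over all genes, threshold 0.05). Over all 13353 genes tested, 47.2% passed, 23.6% higher and 23.6% lower, against 5 of 6 Ly6 genes (83.3%), so a gene passing is common in this comparison. The IRF2_KO and Parental libraries did not overlap for 5 of the 6 Ly6 genes, and for 54.0% of all genes tested. The median log2 fold change was 0.70 over the 6 Ly6 genes and -0.01 over all genes tested. All 6 passed the filter on low counts, with a limit of 0.296 CPM, the read count scaled to library size. Ly6i had 3 of 3 IRF2_KO libraries but only 1 of 3 Parental libraries above that limit. It could therefore be tested only because it was higher in IRF2_KO. Of the 5 members that passed the filter in both groups, 3 were higher and 1 lower.

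The promoters are shown first because the member that changed least in proportion and a neighbouring paralog that rose share nearly the same bases there. RefSeq promoter sequences (GRCm38.p6) matched Ly6c1, Ly6c2 and Ly6g of the 6 members, and the paralog Ly6a2, which RefSeq lists as protein-coding and GENCODE M21 as a transcribed pseudogene. The stretches compared are the 250 bases before the first start site of that table. Printed are their bases outside the RefSeq span of the gene, 5′ to 3′ on the minus strand, namely chr15:75112067-75112221 for Ly6c2, chr15:75135129-75135378 for Ly6a2 and chr15:75048921-75049087 for Ly6c1. Capitals mark bases of Ly6c2 that differ from or are missing in Ly6a2, bases of Ly6a2 that differ from Ly6c2, and bases of Ly6c1 that differ from Ly6c2 or have no counterpart there within the aligned part.
Ly6c2: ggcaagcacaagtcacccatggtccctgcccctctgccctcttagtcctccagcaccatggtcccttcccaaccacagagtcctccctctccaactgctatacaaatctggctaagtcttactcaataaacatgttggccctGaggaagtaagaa
Ly6a2: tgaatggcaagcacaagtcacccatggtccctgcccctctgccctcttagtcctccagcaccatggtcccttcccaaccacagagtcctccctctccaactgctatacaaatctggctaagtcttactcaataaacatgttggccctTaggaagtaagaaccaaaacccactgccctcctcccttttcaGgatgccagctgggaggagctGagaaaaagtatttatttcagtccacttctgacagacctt
Ly6c1: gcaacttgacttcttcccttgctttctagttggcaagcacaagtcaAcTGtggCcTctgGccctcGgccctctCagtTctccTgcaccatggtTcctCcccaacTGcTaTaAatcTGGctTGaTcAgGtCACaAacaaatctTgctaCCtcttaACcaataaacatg

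Over the whole 250 bases, the Ly6c2 and Ly6a2 stretches were identical in 96.8% of 250 aligned columns, with 3 mismatches and 5 gap columns. Ly6c1 matched Ly6c2 in 72.6% of 234 columns, and the Ly6g stretch matched Ly6c2 in 66.8% of 208 columns. The letters of an interferon response element, GAAA followed after any 2 bases by GAAA again, were searched on both strands and were found in 2.98% of 32851 RefSeq promoter stretches of 250 bases. TTCNNNGAA, the letters of a STAT site, was likewise found in 7.02% of the same stretches. Neither motif was found in the stretches of Ly6c1, Ly6c2, Ly6g or Ly6a2. This says only that these letters are not in these windows.

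Irf2 itself averaged 39.1 ± 1.89 CPM in IRF2_KO and 41.5 ± 0.786 CPM in Parental (SD, n = 3 each) and did not pass the test (log2 fold change -0.08, edgeR adjusted p = 0.209). Transcript level alone cannot show whether the Irf2 protein was lost, so it does not check the labels. The total count per library was 29070160 to 34051219 in IRF2_KO and 33422590 to 39925038 in Parental. Promyelocyte genes were abundant in both groups (summed CPM 9137 to 10539 in IRF2_KO and 11323 to 12242 in Parental). All 4 listed were tested: 1 was higher, 2 were lower and 1 did not pass (75.0% called, against 47.2% of all genes tested). On the log2 scale Elane was at -1.69, Mpo at -0.52 and Ctsg at 0.13. Cd34, by contrast, had at most 2 reads in any library. Of 16 listed marker genes of other cell types found in the files, 8 had no read at all, among them Cd3e and Ms4a1. The list summed to 3.80 to 5.43 CPM in IRF2_KO and 4.26 to 4.61 CPM in Parental. Most of this came from the mast cell marker Mcpt8, at 3.68 ± 0.567 CPM in IRF2_KO and 3.56 ± 0.211 CPM in Parental. Neither Mcpt8 nor the erythroid marker Klf1, with 17 to 30 reads a library, passed the test.

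Ly6c2 and Ly6e carried nearly all Ly6 transcript, and the other members were low. By the deposited size-factor-adjusted RPKM, a level per length of gene, Ly6c2 averaged 1997 ± 58.1 in IRF2_KO and 1605 ± 40.5 in Parental (SD, n = 3 each), rank 8 of all genes listed in IRF2_KO and 13 in Parental by group mean. Ly6e averaged 646 ± 44.5 RPKM in IRF2_KO and 366 ± 9.03 in Parental, rank 57 in IRF2_KO and 107 in Parental. Ly6a averaged 18.1 ± 0.428 RPKM in IRF2_KO and 5.17 ± 0.281 in Parental. The other members stayed below 1.15 RPKM in every library. The order in IRF2_KO was Ly6c2, Ly6e, Ly6a, Ly6g, Ly6c1 and Ly6i, and the Ly6c1 and Ly6i values overlapped there (0.526 to 0.755 RPKM for Ly6c1 and 0.482 to 0.571 RPKM for Ly6i). In Parental the order was Ly6c2, Ly6e, Ly6a, Ly6c1, Ly6g and Ly6i, with no overlap between neighbours in that order.

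**Figure D1:**
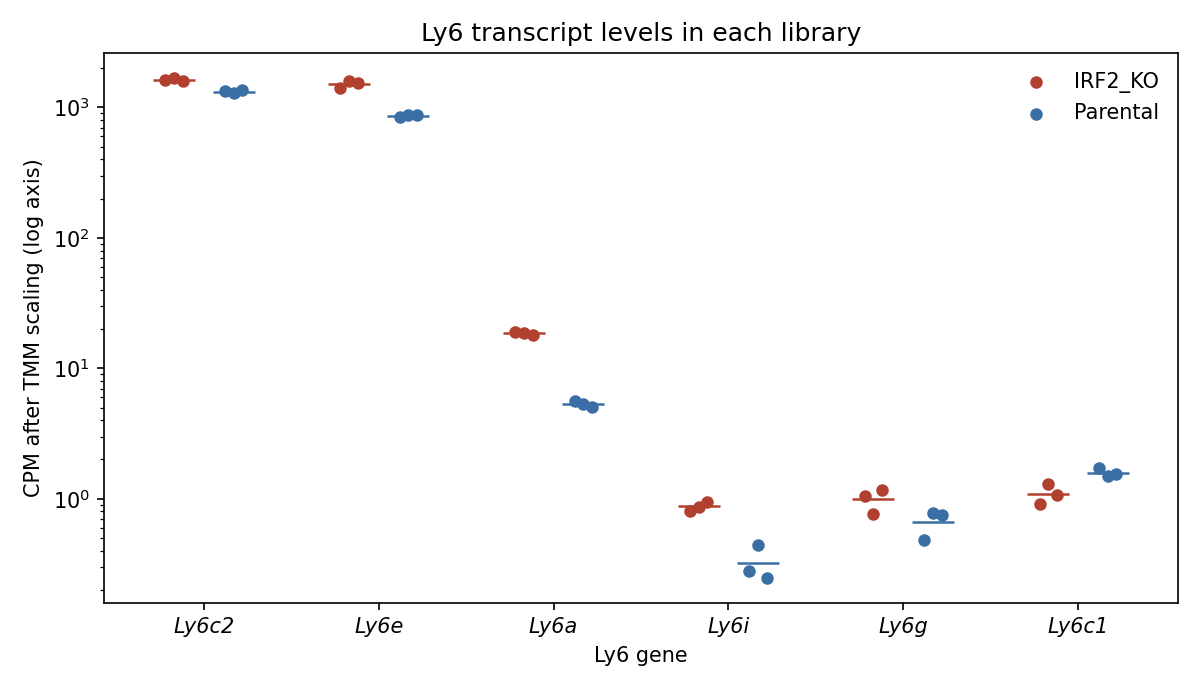
CPM of each Ly6 gene on a log axis, with a point for each of the 3 IRF2_KO and 3 Parental libraries and a line at the group mean. Ly6c2 and Ly6e lie at 839 CPM or more in every library, and Ly6i, Ly6g and Ly6c1 at 1.72 CPM or less.

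Ly6a encodes Sca-1, the antigen used to sort mouse haematopoietic stem and progenitor cells. It is Entrez gene 110454, on the minus strand of chromosome 15 at 74994877 to 74998031. It had 18.9, 18.8 and 18.1 CPM in the IRF2_KO libraries and 5.58, 5.37 and 5.02 CPM in the Parental libraries. Every IRF2_KO library stood above every Parental library, and the spread within each group was small. The log2 fold change was 1.80 (SE 0.08, edgeR adjusted p = 3.41e-12), a 3.49-fold rise resting on 1711 reads in IRF2_KO and 604 in Parental. Of the 6 members it had the largest fold change.

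Ly6e encodes Sca-2, an interferon-induced antigen known in mice and humans for its effects on the entry of viruses into cells. It is Entrez gene 17069, on the plus strand at 74955025 to 74959904. It had 1415, 1608 and 1533 CPM in the IRF2_KO libraries and 839, 878 and 880 CPM in the Parental libraries. The IRF2_KO libraries varied more among themselves, yet the lowest of them was far above the highest Parental library. Ly6e rose 1.75-fold (log2 fold change 0.81, SE 0.05, edgeR adjusted p = 1.51e-10). None of its 2829 distinct stretches of 50 bases in GENCODE M21 transcripts occurred in another gene, so its count is the least exposed to reads shared between paralogs.

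Ly6c2 encodes the Ly6C antigen of monocytes. It is Entrez gene 100041546, on the minus strand at 75108161 to 75112066. It had 1620, 1682 and 1605 CPM in the IRF2_KO libraries and 1331, 1286 and 1350 CPM in the Parental libraries. The groups did not overlap, but the rise was modest, 1.24-fold (log2 fold change 0.31, SE 0.04, edgeR adjusted p = 5.90e-06). With 150506 reads over the IRF2_KO libraries and 150422 over the Parental libraries, Ly6c2 took 0.159% to 0.166% of the counts of an IRF2_KO library and 0.130% to 0.136% of a Parental library.

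Ly6c1 also encodes a Ly6C antigen, and its longest reading frame was 81.2% identical to that of Ly6c2. These frames were 444 bases in Ly6c1 and 396 in Ly6c2, and bases without a counterpart counted as not identical. The figure therefore understates how alike the parts that align are. It is Entrez gene 17067, on the minus strand at 75044018 to 75048920, and was counted with 27, 37 and 36 reads in the IRF2_KO libraries and 68, 50 and 62 reads in the Parental libraries. These counts correspond to 0.907, 1.29 and 1.07 CPM in IRF2_KO and 1.72, 1.48 and 1.54 CPM in Parental. All 3 IRF2_KO libraries lay below the Parental libraries, so Ly6c1 went in the other direction from Ly6c2. It fell 1.46-fold, with a log2 fold change of -0.54 (SE 0.20, edgeR adjusted p = 0.0322). The call was lost with DESeq2 (-0.53, adjusted p = 0.102). It was also lost without IRF2_KO 1 (-0.42, edgeR adjusted p = 0.139), IRF2_KO 3 (-0.53, adjusted p = 0.0880), Parental 1 (-0.48, adjusted p = 0.101) or Parental 3 (-0.56, adjusted p = 0.0584), while the direction was kept.

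Ly6i, whose longest reading frame was 86.4% identical to that of Ly6a, is Entrez gene 57248, on the minus strand at 74979534 to 74983434. It had 24, 25 and 32 reads in the IRF2_KO libraries and 11, 15 and 10 reads in the Parental libraries. These are 0.806, 0.871 and 0.951 CPM in IRF2_KO and 0.278, 0.445 and 0.249 CPM in Parental. The groups did not overlap, with Parental 2 the highest of its group. Ly6i rose 2.74-fold (log2 fold change 1.46, SE 0.31, edgeR adjusted p = 0.000798). It passed the filter on low counts only through the IRF2_KO libraries, so it could be tested only because it was higher there.

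Ly6g encodes the antigen of mature neutrophils that antibodies to Gr-1 bind. It is Entrez gene 546644, on the plus strand at 75155261 to 75159128. It had 31, 22 and 39 reads in the IRF2_KO libraries and 19, 26 and 30 reads in the Parental libraries. At 1.04, 0.767 and 1.16 CPM in IRF2_KO and 0.479, 0.771 and 0.746 CPM in Parental the groups overlapped, since IRF2_KO 2 was below Parental 2. The log2 fold change was 0.59 (SE 0.27, edgeR adjusted p = 0.0814). The test did not call a difference, which does not show that there is none. Without IRF2_KO 2 the gene passed (0.73, edgeR adjusted p = 0.0388).

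**Figure D2:**
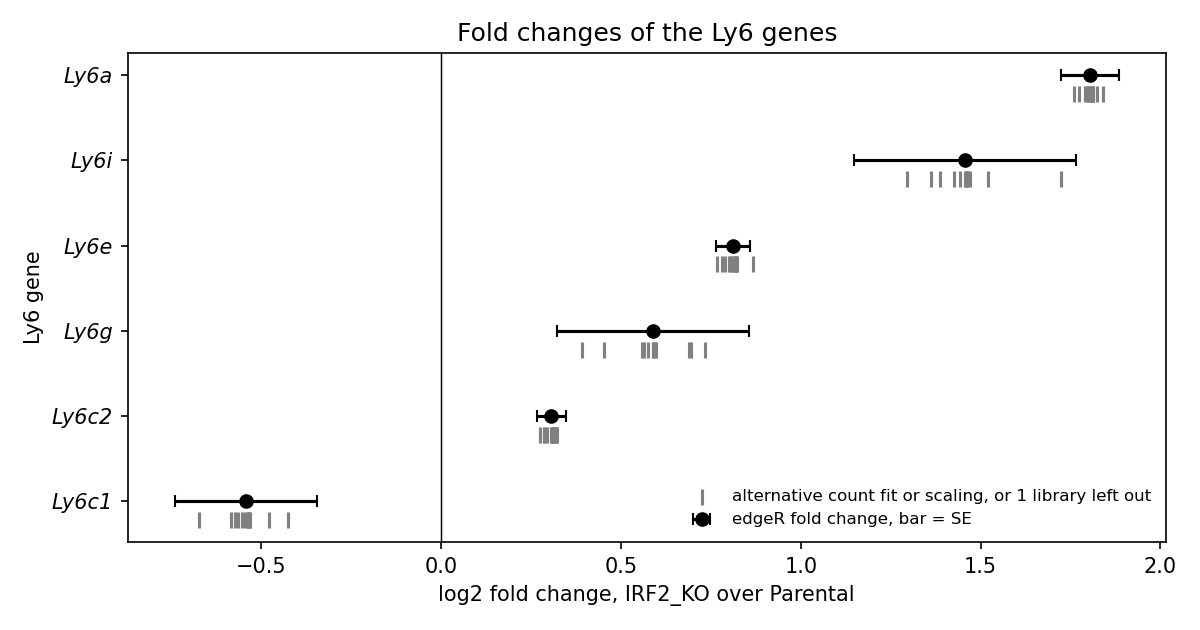
Log2 fold change of each Ly6 gene, IRF2_KO over Parental, with its SE (black), and the values from other count fits and scalings or with 1 library left out (grey ticks). Ly6a (1.80) and Ly6i (1.46) lie highest, Ly6c2 at 0.31, and Ly6c1 (-0.54) is the member below 0.

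Because Ly6c2 and Ly6e dominate, the summed Ly6 counts followed them. The 6 genes together took 0.303%, 0.327% and 0.312% of the counts in the IRF2_KO libraries and 0.221%, 0.219% and 0.225% in the Parental libraries. Fitted as a single feature they rose by 0.53 on the log2 scale (edgeR adjusted p = 8.91e-09). The make-up of the sum shifted: Ly6e made up 23.1%, 24.8% and 24.8% of the summed RPKM in IRF2_KO and 17.9%, 19.1% and 18.4% in Parental. Ly6c2 made up 76.1%, 74.5% and 74.5% in IRF2_KO and 81.7%, 80.5% and 81.2% in Parental.

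Ratios between members were compared within libraries. For the 15 pairs of members, the log2 ratio of their reads within a library was compared between the groups, and 12 pairs had groups that did not overlap. Since 54.0% of single genes tested already had groups that did not overlap, and no share was computed for pairs of other genes, nothing about the Ly6 genes is read from this count. With 3 libraries against 3 an exact two-sided permutation test cannot go below p = 0.1, and after Benjamini-Hochberg adjustment over the 15 pairs those 12 had p = 0.125, so no pair passed. The log2 ratio of Ly6e to Ly6c2 was -0.11 ± 0.07 in IRF2_KO and -0.61 ± 0.06 in Parental (SD, n = 3 each, exact permutation p = 0.1). The ratio of Ly6i to Ly6a overlapped between the groups, at -4.41 ± 0.15 in IRF2_KO and -4.09 ± 0.43 in Parental (exact permutation p = 0.3). The other pairs that overlapped were Ly6g with Ly6c2 and Ly6g with Ly6e.

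Only uniquely aligned reads were counted, so near-identical stretches limit what each gene can show. Distinct stretches of 50 bases were taken from each member's GENCODE M21 transcripts without a retained intron. They were sought in all transcripts of other genes, those with a retained intron included. Another gene held 32.8% of 1764 stretches of Ly6c1, 31.2% of 817 of Ly6c2 and 19.0% of 1297 of Ly6a. For Ly6i it was 4.76% of 1156, and for Ly6g 0.448% of 892. Of the Ly6c1 stretches, 379 occurred in Ly6c2 and 195 in Ly6a, and 252 of the Ly6c2 stretches occurred in Ly6c1. Ly6i shared 31 with Ly6a. At 100 bases the shares fell to 10.1% in Ly6c1, 14.9% in Ly6c2 and 1.45% in Ly6a, and no stretch of Ly6i or Ly6g was shared. The read length is not given in the sources used here.

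Ly6c1 had 0.560, 0.767 and 0.666 reads for every 1000 of Ly6c2 in the IRF2_KO libraries and 1.29, 1.15 and 1.14 in the Parental libraries. This ratio was lower in every IRF2_KO library, but it did not pass (exact permutation p = 0.1, or 0.125 after adjustment). How many of these few Ly6c1 reads come from Ly6c2 was not tested. With the 2 genes summed, the log2 fold change was 0.31 (edgeR adjusted p = 6.10e-06), which is that of Ly6c2. Ly6c1 gave 100 reads in IRF2_KO and 180 in Parental, against 150506 and 150422 of Ly6c2. The sum therefore had to follow Ly6c2 and says nothing about Ly6c1. Ly6i had 4.26, 4.64 and 5.25 reads for every 100 of Ly6a in IRF2_KO and 4.98, 8.29 and 4.95 in Parental. That ratio did not separate the groups, so whether the Ly6i reads move apart from those of Ly6a cannot be told from these libraries.

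**Figure D3:**
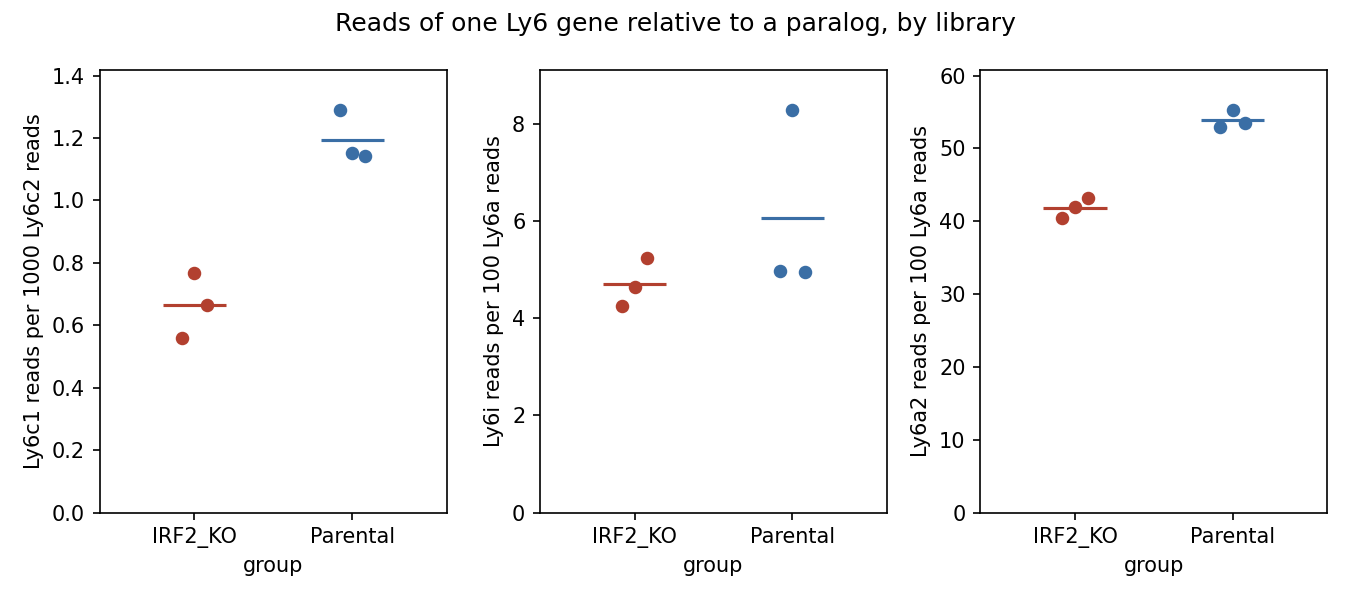
Reads of a Ly6 gene relative to a paralog in each of the 3 IRF2_KO and 3 Parental libraries, with lines at the group means. Ly6c1 per 1000 Ly6c2 reads and Ly6a2 per 100 Ly6a reads are lower in every IRF2_KO library (40.5 to 43.2 for Ly6a2, against 52.9 to 55.2 in Parental), and Ly6i per 100 Ly6a reads overlaps.

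Ly6a2, whose promoter stretch is shown above beside that of Ly6c2, had 7.66, 7.88 and 7.81 CPM in the IRF2_KO libraries and 2.95, 2.97 and 2.68 CPM in the Parental libraries. It rose 2.72-fold (log2 fold change 1.44, SE 0.11, edgeR adjusted p = 3.99e-09), closer to Ly6a than to Ly6c2. Of its 804 stretches of 50 bases, 20 were shared with Ly6a and 3 with Ly6c2. Ly6m, a further gene of the cluster, had 11, 15 and 11 reads in IRF2_KO and 4, 6 and 5 reads in Parental (log2 fold change 1.58, SE 0.45, edgeR adjusted p = 0.00777). It passed the filter on low counts only through the IRF2_KO libraries, so it could be tested only because it was higher there. Ly6f had 4 to 14 reads in IRF2_KO and 11 to 18 in Parental and did not pass (log2 fold change -0.35, edgeR adjusted p = 0.523). Of 16 listed other Ly6/uPAR genes of the cluster, 15 were in the files and these 2, Ly6m and Ly6f, were high enough to test, while 6, among them Ly6h, Ly6k and Lypd2, had no read in any library. Ly6a2 is not in that list.

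Along chromosome 15, neighbouring genes moved in both directions. Within 1 Mb of the members, 67 other genes were listed and 22 were tested, of which 5 were higher, 7 lower and 10 did not pass (54.5% called, against 47.2% of all genes tested), with a median log2 fold change of -0.02. Those called with 2-fold or more were Ly6m, Ly6a2, Fam83h (1.49, SE 0.16), Them6 (-1.63, SE 0.13) and Gsdmd (-5.05, SE 0.09, edgeR adjusted p = 5.59e-18). Gsdmd, the pore-forming gasdermin D of pyroptosis, lies at 867.3 kb and Them6 at -273.6 kb from Ly6a, by lowest coordinate. Eef1d, a subunit of a translation elongation factor complex, fell by 0.26 on the log2 scale. Gm28068 is a long non-coding RNA whose RefSeq span of 74966931 to 75043885 holds Ly6i and Ly6a and which GENCODE M21 places on the opposite strand. In GENCODE M21, however, no other gene overlaps Ly6i or Ly6a. Gm28068 had 12 to 13 reads in IRF2_KO and 11 to 14 in Parental and did not pass the test (log2 fold change 0.34, edgeR adjusted p = 0.474). Whether strand was used in counting is not given in the sources used here.

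**Figure D4:**
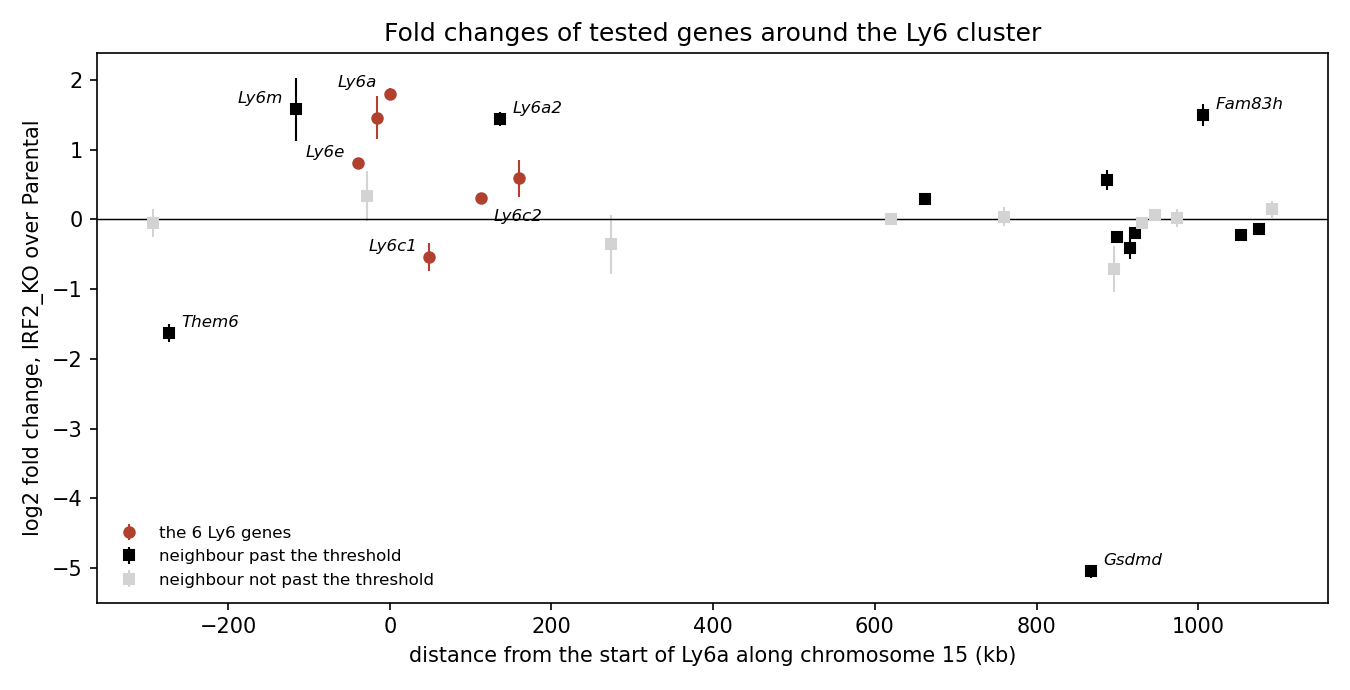
Log2 fold change (IRF2_KO over Parental, bars are SE) of tested genes against distance in kb from the lowest coordinate of Ly6a. Red points are the 6 Ly6 genes, black squares other genes past the threshold and grey squares the rest. Ly6m and Ly6a2 lie beside the raised members, and Gsdmd lies at -5.05.

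Transcripts of other markers of the cell types that these antigens are used to sort also differed between the groups. In bulk libraries, a change in the number of cells of a type and a change in RNA per cell cannot be told apart. Monocyte and macrophage markers rose in 7 of 7 tested of 8 listed, against 23.6% of all genes tested (summed CPM 903 to 909 in IRF2_KO and 436 to 451 in Parental). Lyz2, lysozyme, averaged 480 ± 9.97 CPM in IRF2_KO and 193 ± 5.43 in Parental (log2 fold change 1.32), above the 0.31 of Ly6c2, and Csf1r and Itgam rose by 1.96 and 0.93. Cx3cr1, with 4 to 11 reads a library, was too low to test. Neutrophil markers were higher in 5 of 11, lower in 4 and not past the threshold in 2, 81.8% called against 47.2% of all genes tested (summed CPM 354 to 361 in IRF2_KO and 336 to 346 in Parental). Ltf and Ngp rose by 1.38 and 0.92 and Camp fell by 0.92 on the log2 scale. Progenitor markers fell in 3 of 3 tested of 4, against 23.6% of all genes tested (summed CPM 471 to 491 in IRF2_KO and 673 to 683 in Parental), with Kit at -3.26, Flt3 at -0.85 and Myb at -0.44, while the stem cell antigen gene Ly6a rose. The part of these marker changes in the Ly6 results was not tested.

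Of 25 listed interferon-stimulated genes 22 were tested, and 9 of these, Oas3 among them, passed the filter on low counts only through the IRF2_KO libraries, so they could be tested only because they were higher there. The other 13 passed it in both groups, and 13 of 13 rose, against 23.6% of all genes tested. The list had summed CPM of 1288 to 1304 in IRF2_KO and 261 to 268 in Parental. The fold changes of the Ly6 genes were smaller than those of the genes named by smallest adjusted p. On the log2 scale Oas3, an oligoadenylate synthetase, rose by 9.16 (SE 0.10), Rsad2, viperin, by 8.42 (SE 0.11) and Usp18, a protease that removes ISG15, by 6.13 (SE 0.10), against 1.80 for Ly6a and 0.81 for Ly6e. Bst2, tetherin, which like the Ly6 proteins carries a GPI anchor, rose by 1.69 (SE 0.06) and is also in this list. Ly6a and Ly6e differed from Oas3 in their starting level: Parental libraries held 5.32 ± 0.281 CPM of Ly6a and 865 ± 23.2 CPM of Ly6e, and 0.186 ± 0.0323 CPM of Oas3 (SD, n = 3).

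The genes whose pattern over the 6 libraries was most like that of a member were found for the 3 members with a mean of at least 2 CPM, by the root mean square distance of log2 CPM centred on each gene's mean. Nearest to Ly6a were Ccr1 (distance 0.04), a chemokine receptor gene, Trim12a (0.05) and Ncoa7 (0.05), with log2 fold changes of 1.73, 1.76 and 1.78. Nearest to Ly6e were Mt2 (0.02), a metallothionein gene, Haao (0.03) and Plin2 (0.03), a lipid droplet protein gene, with log2 fold changes of 0.80, 0.78 and 0.81. Nearest to Ly6c2 were Tmem50a (0.01), Pvr (0.01) and Ttc39c (0.02), with log2 fold changes of 0.32, 0.30 and 0.30. With 2 groups, this distance mostly reflects the difference between them.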

How the data were processed

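GSNAP and the GRCm38 build are named in the submitters' processing notes. Aligner version, annotation and strand use were not given in the sources used here. Per the labels' protocols a stranded total RNA kit was used, while the molecule label names polyadenylated RNA. The deposited count is that of uniquely aligned reads per gene model and the deposited RPKM is adjusted by size factors, both per the file headers. RPKM was used for levels per length and for a check with limma-trend. Count fits used edgeR 4.0.16 under R 4.3.3, with filterByExpr, TMM (factors 0.987 to 1.02) and robust quasi-likelihood F-tests, Benjamini-Hochberg adjusted over 13353 genes, threshold 0.05. Each SE is the absolute log2 fold change over the root of its F. CPM is TMM-scaled, summed list CPM is not. The filter asked for 0.296 CPM in 3 libraries, and 3 counts are 0.0751 to 0.103 CPM, which covers counting error only. Names came from RefSeq for 31049 IDs and GENCODE M21 for 78, leaving 5401 unnamed. Replicates are numbered in record order. The tests were tested on simulated data, in which far fewer genes differed than here, and no result here rests on that outcome.

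The members, lists and tests were chosen with earlier results of these data known. Named were all members, up to 3 called genes of each list by smallest adjusted p, neighbours called with 2-fold or more or among the 5 smallest adjusted p, Gsdmd, and the 3 genes nearest in pattern to members of at least 2 CPM. Ly6a2, Ly6f, Gm28068, Bst2, Thy1, Camp, Flt3, Lypd6b, Ly6g5b, Mcpt8, Klf1, genes named as too low, and called genes of the GPI anchor list beyond the first 3 were named after their values were seen. The paralog read ratios, the promoter comparison with Ly6a2 and the omission of retained-intron transcripts were likewise chosen after values were seen. Alternatives were RLE, upper-quartile and library-size scaling, DESeq2 1.42.0, limma-voom and limma-trend (limma 3.58.1), other filters, and each library left out.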

Additional observations from a re-analysis of the deposited data

How the results depend on the processing

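Log2 fold changes were 1.64 to 1.84 for Ly6a, 0.77 to 0.87 for Ly6e, 0.28 to 0.32 for Ly6c2 and 0.36 to 1.72 for Ly6i. For the sum of Ly6c1 and Ly6c2 they were 0.27 to 0.32, and for the sum of the 6 members 0.50 to 0.57. All of these kept direction and call under each alternative in which they were tested, and neither sum was fitted with limma-trend. The low end of Ly6i came from limma-trend on log2(RPKM + 1), where a pseudocount shrinks low genes. The sum of Ly6c1 and Ly6c2 could only follow Ly6c2, which held nearly all its reads. The count of genes called was 5256 to 6523. Ly6c1 was lower throughout (-0.23 with limma-trend on log2(RPKM + 1)), but not called with DESeq2 (-0.53), and its values with a library left out ran from -0.67 to -0.42, so the count of lower members was 0 with DESeq2 and 0 to 1 with a library left out. Ly6g gave 0.39 to 0.73 with a library left out and was called without IRF2_KO 2 and with limma-trend on log2(RPKM + 1) (0.26). The cause of these changes was not tested. With at least 1 CPM in 3 libraries, Ly6g and Ly6i were not tested, leaving 3 higher members. For Ly6g, Ly6i and Ly6c1, 10 to 68 reads a library limit the precision. No paired analysis was possible because the labels give no replicate numbers.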

Other observations

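Genes that build and attach the GPI anchor on which Ly6 proteins depend differed little. Of 26 tested of 30 listed, 2 were higher, 4 lower and 20 did not pass (23.1% called, against 47.2% of all genes tested), with a median log2 fold change of -0.02. Dpm3, a subunit of the dolichol-phosphate mannose synthase, rose by 0.37 on the log2 scale and averaged 34.8 ± 2.72 CPM in IRF2_KO and 27.0 ± 0.201 in Parental (SD, n = 3 each). Pigt, a subunit of the transamidase that attaches the anchor, rose by 0.25, and Dpm2, Piga, Pigb and Pigg fell by 0.20, 0.21, 0.19 and 0.22 on the log2 scale.

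Other GPI-anchored antigens of blood cells changed in both directions. Of 10 tested of 25 listed, 6 were higher, 3 lower and 1 did not pass (90.0% called, against 47.2% of all genes tested, median log2 fold change 0.74). Bst2, tetherin, averaged 188 ± 13.9 CPM in IRF2_KO and 58.3 ± 3.17 in Parental, and Cd52, a short antigen of lymphocytes and myeloid cells, 26.0 ± 0.918 CPM in IRF2_KO and 11.6 ± 0.976 in Parental. Cd14, a lipopolysaccharide co-receptor, averaged 29.2 ± 0.877 CPM in IRF2_KO and 58.0 ± 1.18 in Parental. Thy1, the antigen of T cells, had 2, 1 and 3 reads in IRF2_KO and 35, 37 and 60 reads in Parental. It is 1 of the 3 lower genes and passed the filter on low counts only through the Parental libraries. Among Ly6/uPAR genes of other chromosomes, 4 of 19 were high enough to test: Plaur, the urokinase receptor gene, and Cd59a, an inhibitor of complement, rose by 0.64 and 1.77 on the log2 scale, and Lypd6b and Ly6g5b did not pass (-0.11 and -0.81).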
